A study of Rattus norvegicus with 21 samples.

Results

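Transcripts of 10 genes that make bile acids and carry them through the hepatocyte were followed in the livers of rats given diethylnitrosamine (DEN), a carcinogen that is activated in hepatocytes and scars the liver. The genes were chosen by symbol: the uptake carriers Slc10a1 and Slco1b2, the synthesis enzymes Cyp7a1, Cyp8b1 and Cyp27a1, the conjugation enzymes Slc27a5 and Baat, the canalicular pumps Abcb11 and Abcc2, and the basolateral pump Abcc3. Of these 10 genes, 8 had a probe with their symbol, 1 probe each, and all 8 passed the filter on dim probes, out of 12112 named genes tested. Abcb11 and Abcc2 were not analysed here, so canalicular export is described from other genes of that membrane.

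The series holds 21 Illumina bead arrays of total RNA from liver tissue outside tumours of male Wistar rats, with 3 arrays in each of 7 groups. Rats sampled at the time point labelled week 12 had received weekly intraperitoneal phosphate-buffered saline (PBS), DEN at 50 mg/kg (DEN 50) or DEN at 100 mg/kg (DEN 100). At week 18 there were 3 groups of DEN 50 rats, which were injected 5 times a week in weeks 13 to 18 with vehicle, with erlotinib at 0.5 mg/kg or with erlotinib at 2 mg/kg, and a PBS group without those injections. The sources used here give 18 weeks of DEN dosing, a span that covers the weeks of the erlotinib and vehicle injections. They give no other length for the rats labelled week 12. Erlotinib inhibits the kinase of the epidermal growth factor receptor. DEN livers carry the label cirrhosis, and rats had a washout of 1 week before killing. Protocol notes give killing times of 9, 13 and 19 weeks, and the week names of the array labels are used here. The lower erlotinib dose came from a separate study, and the vehicle rats of both studies were pooled with no study named for each rat, so erlotinib dose and study cannot be told apart. The labels number the samples without stating outright that each number is its own animal, and every p-value reflects only how far those samples spread. A rat named in the text stands for the sample on 1 array. Across all arrays the median raw signal ranged from 105.0 to 186.9 intensity units, and pairs of arrays correlated at 0.907 to 0.990 after normalization. The number of arrays limits the precision.

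Bile acids are made from cholesterol in hepatocytes, joined to taurine or glycine, pumped into the bile canaliculus and returned from the gut in portal blood. Hepatocytes take them back up across the basolateral membrane, so most of the pool cycles rather than being made anew. When flow into bile is impaired, hepatocytes are known to carry less of the uptake machinery and more of the pumps that send bile acids back to blood. Synthesis is held in check by the nuclear receptor FXR, which senses bile acids and acts through the repressor SHP.

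The stretch around the transcription start is shown for the 4 genes that were lower in DEN 100 livers and higher with erlotinib at 2 mg/kg. Each is 300 bases of the RefSeq promoter table of assembly GRCr8, 5′ to 3′ on the gene's strand, with the start site 50 bases before its end, and capitals mark matches to the motifs named next. The windows lie at chr6:106357895-106358194 on the minus strand for Slc10a1, chr4:176282334-176282633 on the plus strand for Slco1b2, chr5:68656088-68656387 on the minus strand for Baat and chr1:82699286-82699585 on the minus strand for Slc27a5.
Slc10a1 promoter: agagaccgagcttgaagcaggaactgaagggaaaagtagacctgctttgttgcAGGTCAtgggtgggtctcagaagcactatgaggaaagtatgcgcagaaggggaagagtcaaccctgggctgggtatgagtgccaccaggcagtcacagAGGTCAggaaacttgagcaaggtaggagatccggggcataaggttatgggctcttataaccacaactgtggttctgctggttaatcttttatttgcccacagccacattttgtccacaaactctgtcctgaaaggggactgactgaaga
Slco1b2 promoter: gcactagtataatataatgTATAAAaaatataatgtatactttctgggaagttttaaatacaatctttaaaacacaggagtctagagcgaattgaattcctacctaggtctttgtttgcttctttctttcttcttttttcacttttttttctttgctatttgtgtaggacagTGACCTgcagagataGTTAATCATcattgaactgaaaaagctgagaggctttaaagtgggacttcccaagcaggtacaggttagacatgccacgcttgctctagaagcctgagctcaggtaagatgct
Baat promoter: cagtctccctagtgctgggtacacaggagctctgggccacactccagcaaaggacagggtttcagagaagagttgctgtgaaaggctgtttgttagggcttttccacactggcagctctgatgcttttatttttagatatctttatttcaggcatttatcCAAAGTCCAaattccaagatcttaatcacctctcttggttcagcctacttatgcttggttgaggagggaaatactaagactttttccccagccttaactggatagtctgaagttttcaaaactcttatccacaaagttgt
Slc27a5 promoter: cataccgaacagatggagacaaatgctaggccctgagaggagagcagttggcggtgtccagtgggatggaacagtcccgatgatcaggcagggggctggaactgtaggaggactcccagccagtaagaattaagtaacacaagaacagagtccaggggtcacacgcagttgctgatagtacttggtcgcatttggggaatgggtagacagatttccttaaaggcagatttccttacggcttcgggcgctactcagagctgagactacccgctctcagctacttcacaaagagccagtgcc

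The table held windows for 7 of the 10 genes, and Abcb11, Abcc3 and Cyp7a1 had no entry. Motifs searched on both strands were the nuclear receptor hexamer AGGTCA, the centre of the FXR inverted repeat GGTCANTGA (which can overlap the hexamer), the HNF4 motif CAAAGTCCA, the HNF1 motif GTTAATNAT, the C/EBP motif TTGCGCAA, the HNF6 motif ATTGAT, the antioxidant response core TGACNNNGC and the TATA box TATAAA. The nuclear receptor hexamer stood in 4 of the 7 windows. Slc10a1 held it at -197 and -99 from the start. Slco1b2 held it at -78 on the opposite strand (TGACCT), beside the HNF1 motif at -63 and TATAAA at -231. Baat held the HNF4 motif at -90, and Slc27a5 held none of these letters. Of all 33469 windows in the table, 16.2% held AGGTCA, 0.391% the HNF4 motif, 0.747% the HNF1 motif and 14.2% TATAAA. The FXR centre (0.816% of all windows), the C/EBP motif (0.17%) and the HNF6 motif (8.06%) were found in none of the 7 windows, and the antioxidant response core (12.1%) in those of Abcc2 and Cyp8b1. A match describes letters and is not evidence of a bound factor.

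Levels are log2 normalized intensities, on which a difference of 1 is a doubling, and the median of all probes lay at 6.38, close to background. Levels of different probes are not compared. Changes come from limma's fit over all 21 arrays and are given ± the standard error (SE). A gene is called changed where the Benjamini-Hochberg adjusted p over 19339 features, meaning named genes and unnamed probes, is under 0.05.

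**Figure D1:**
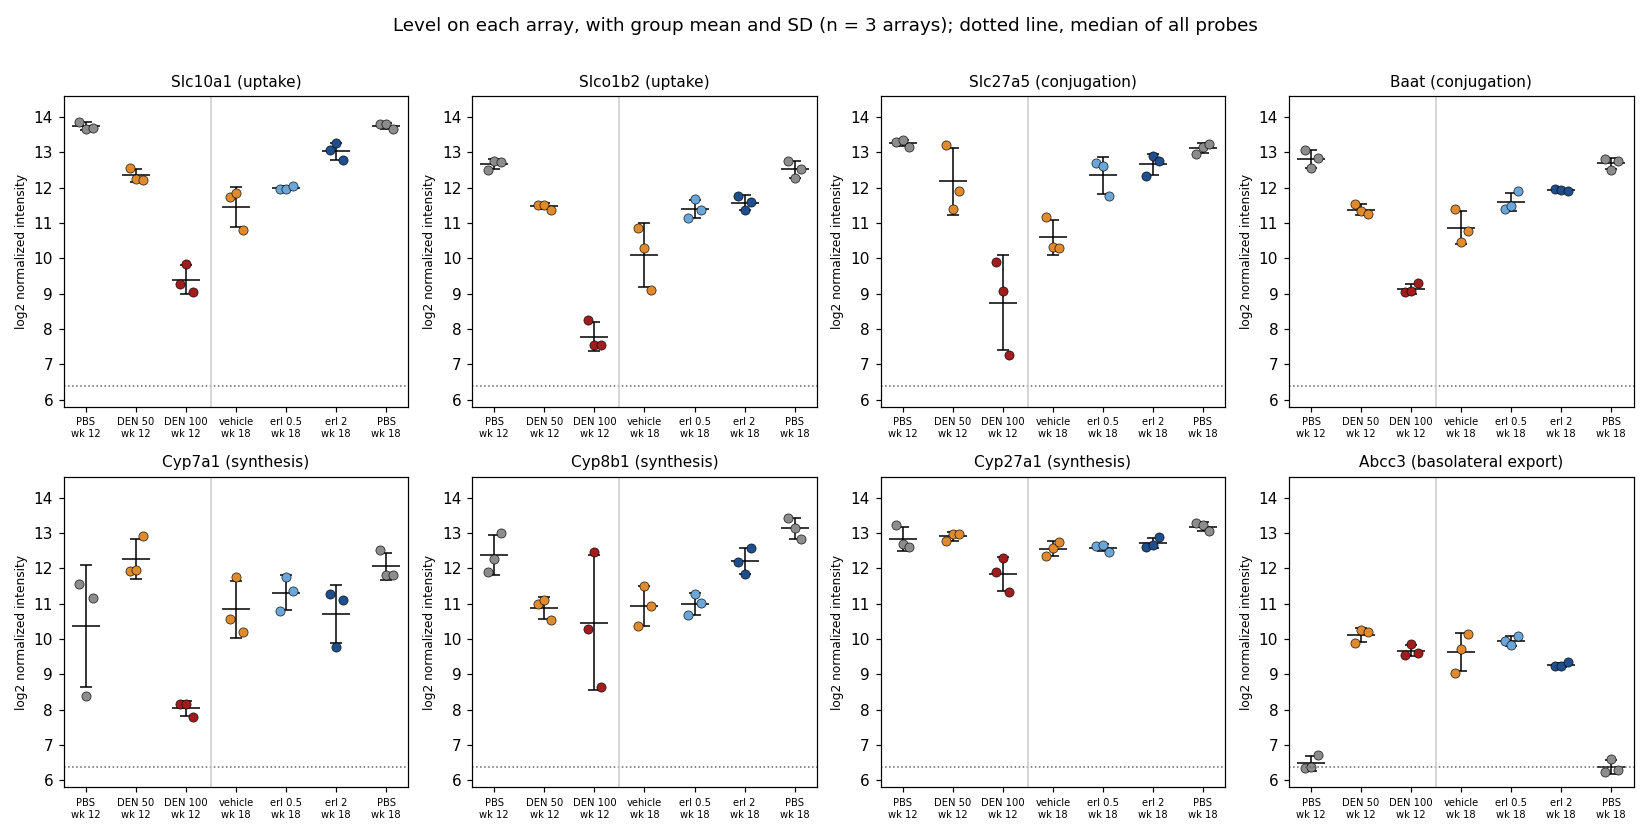
Log2 normalized intensity (vertical axis) of 8 bile acid genes on each array, by group (horizontal axis), with the group mean and SD of 3 arrays and a dotted line at the median of all probes, 6.38. Uptake and conjugation genes sit lowest in DEN 100 livers, and Abcc3 stays on the dotted line in PBS livers only.

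At week 12 the liver's bile acid uptake carriers, conjugation enzymes and synthesis enzymes were all lower in DEN 100 livers than in PBS livers, and the basolateral pump Abcc3 was higher. All 8 measured genes were called, 7 lower and 1 higher, where 21.3% of all features were called, 11.5% higher and 9.81% lower. Their median log2 change was -3.00, against -0.01 over all features. In DEN 50 livers of the same week 3 of the 8 were called lower (Slc10a1, Slco1b2, Baat) and 2 higher (Abcc3, Cyp7a1), where 10.9% of features were called, 5.77% higher and 5.13% lower. At week 18, DEN 50 livers under vehicle had 6 called lower and 1 higher against PBS, where 18.2% of features were called, 9.51% higher and 8.73% lower. Between the DEN doses at week 12, 6 were called lower in DEN 100 livers and none higher, where 9.38% of features were called, 5.07% higher and 4.31% lower. These comparisons share arrays, so their values stand side by side and are not independent.

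**Figure D2:**
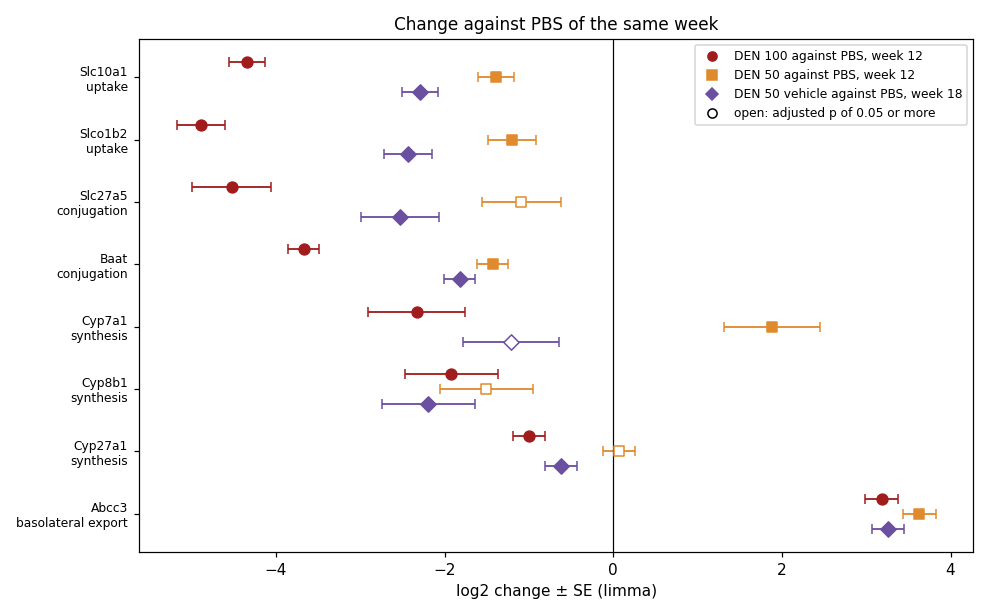
Log2 change ± SE (horizontal axis) of each gene (rows) in DEN 100 and DEN 50 livers at week 12 and in vehicle-treated DEN 50 livers at week 18, each against PBS of the same week; open symbols have an adjusted p of 0.05 or more. Slco1b2 reaches -4.89 with DEN 100, Abcc3 lies between 3.18 and 3.63 in all 3, and Cyp7a1 lies on opposite sides of 0 for the DEN doses at week 12.

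Slc10a1 (probe ILMN_1362567) encodes NTCP, the sodium-dependent carrier that takes up conjugated bile acids from portal blood. It read 13.87, 13.67 and 13.69 in PBS livers, 12.57, 12.26 and 12.21 in DEN 50 livers, and 9.29, 9.85 and 9.05 in DEN 100 livers at week 12. The 3 groups did not overlap and stepped down with dose. The change against PBS was -4.35 ± 0.21 in DEN 100 livers, 20.3-fold lower (limma adjusted p = 5.04e-12). In DEN 50 livers it was -1.40 ± 0.21, 2.63-fold lower (limma adjusted p = 0.000112), and DEN 100 minus DEN 50 was -2.95 ± 0.21, 7.73-fold lower. At week 18 the vehicle livers read 11.73, 11.84 and 10.81, against 13.80, 13.80 and 13.66 in PBS livers, a change of -2.29 ± 0.21. All 3 vehicle livers were lower than every PBS liver.

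Slco1b2 (probe ILMN_1361516), the sodium-independent organic anion carrier of the rodent hepatocyte, covered the widest measured range. At week 12 it read 12.51, 12.77 and 12.74 in PBS livers, 11.52, 11.52 and 11.37 in DEN 50 livers, and 8.26, 7.53 and 7.55 in DEN 100 livers. DEN 100 livers were 29.7-fold lower than PBS (-4.89 ± 0.29, limma adjusted p = 4.85e-11), and DEN 50 livers 2.30-fold lower (-1.20 ± 0.29, limma adjusted p = 0.00744). With arrays scaled by their medians the DEN 50 change was -0.87 and was not called (limma adjusted p = 0.118). At week 18 vehicle livers read 10.87, 10.31 and 9.09, against 12.76, 12.28 and 12.53 in PBS livers. This was 5.40-fold lower, with vehicle rat 69 more than 1 log2 unit under the other vehicle rats.

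Conjugation runs through Slc27a5, the ligase that activates bile acids as coenzyme A esters, and Baat, the transferase that then adds taurine or glycine. Slc27a5 (probe ILMN_1350483) read 13.30, 13.34 and 13.16 in PBS livers, 13.22, 11.40 and 11.91 in DEN 50 livers, and 9.89, 9.07 and 7.27 in DEN 100 livers at week 12. DEN 50 rat 11 lay inside the PBS range while the other DEN 50 rats lay below it. The change in DEN 100 livers was -4.52 ± 0.47, 23.0-fold lower than PBS (limma adjusted p = 1.60e-07), and -3.79 without the DEN 100 rat at 7.27. In DEN 50 livers it was -1.09 ± 0.47 and not called (limma adjusted p = 0.162). Without DEN 50 rat 11 it was -1.61 and called (limma adjusted p = 0.0322). Vehicle livers at week 18 read 11.18, 10.31 and 10.28, against 12.96, 13.15 and 13.25 in PBS livers, 5.78-fold lower and without overlap.

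Baat (probe ILMN_1355867) was the more even of the pair. It read 13.07, 12.55 and 12.83 in PBS livers, 11.55, 11.35 and 11.25 in DEN 50 livers, and 9.05, 9.08 and 9.30 in DEN 100 livers at week 12, with no overlap between groups. Against PBS it was 12.8-fold lower in DEN 100 livers (-3.67 ± 0.18, limma adjusted p = 5.77e-12) and 2.70-fold lower in DEN 50 livers (-1.43 ± 0.18, limma adjusted p = 1.53e-05). At week 18 it read 11.39, 10.47 and 10.76 in vehicle livers, against 12.82, 12.51 and 12.74 in PBS livers. The vehicle livers were 3.53-fold lower (-1.82 ± 0.18), and their highest value stayed below the lowest PBS value.

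Cyp27a1 (probe ILMN_1376833), the mitochondrial enzyme that starts the alternative route of synthesis and oxidizes the side chain in both routes, changed least. It read 13.22, 12.70 and 12.59 in PBS livers, 12.76, 12.98 and 12.97 in DEN 50 livers, and 11.89, 12.29 and 11.35 in DEN 100 livers at week 12. DEN 50 and PBS livers overlapped (0.07 ± 0.19, 95% interval -0.32 to 0.45), and DEN 100 livers were all lower (-0.999 ± 0.19, limma adjusted p = 0.000313). At week 18 vehicle livers read 12.34, 12.59 and 12.76, against 13.28, 13.22 and 13.05 in PBS livers, a change of -0.62 ± 0.19 (limma adjusted p = 0.022). That call was lost without vehicle rat 24 (-0.51), PBS rat 8 (-0.57) or PBS rat 9 (-0.60), and with median scaling.

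Cyp7a1 (probe ILMN_1370739), the rate-limiting first enzyme of the classical route, was the only one of the 8 genes with opposite calls for the DEN doses at week 12. It read 11.55, 8.40 and 11.17 in PBS livers, 11.92, 11.94 and 12.91 in DEN 50 livers, and 8.17, 8.15 and 7.79 in DEN 100 livers. The PBS rat at 8.40 read more than 2 log2 units under the other PBS rats, and the SD of the PBS group was 1.72. DEN 100 livers were 18.6-fold lower than DEN 50 livers (-4.22 ± 0.57, limma adjusted p = 3.36e-05). This call held without each of the 6 arrays and in each of the 11 other settings, not all of which could change it. Against PBS the change was -2.33 ± 0.57 in DEN 100 livers (limma adjusted p = 0.00404), which median scaling took to an adjusted p of 0.0897. Without the PBS rat at 8.40 this change was -3.32, and without the PBS rat at 11.55 it was -1.75, both called. In DEN 50 livers it was 1.88 ± 0.57 (limma adjusted p = 0.0354), and 0.90 without the PBS rat at 8.40 (limma adjusted p = 0.254). The DEN 50 call was also lost without DEN 50 rat 11 (2.05), rat 14 (2.04) or rat 51 (1.56), and in 6 of 11 other settings. At week 18 vehicle livers read 10.56, 11.75 and 10.20, against 12.51, 11.83 and 11.83 in PBS livers, and the change of -1.22 ± 0.57 was not called (limma adjusted p = 0.166). The difference between the DEN 50 changes of weeks 18 and 12 was -3.10 ± 0.81, which also was not called (limma adjusted p = 0.0976).

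Cyp8b1 (probe ILMN_2040873) encodes the sterol hydroxylase that directs synthesis to cholic acid. At week 12 it read 11.89, 12.28 and 12.99 in PBS livers, 10.998, 11.12 and 10.53 in DEN 50 livers, and 10.29, 12.45 and 8.65 in DEN 100 livers. The DEN 100 rat at 12.45 lay within the PBS range, and the DEN 100 group had an SD of 1.91, the largest of any group for these 8 genes. The change against PBS was -1.92 ± 0.55 in DEN 100 livers (limma adjusted p = 0.0136) and -1.51 ± 0.55 in DEN 50 livers (limma adjusted p = 0.0906). The DEN 100 call was lost without the DEN 100 rat at 8.65 (-1.01) and without PBS rat 110 (-1.62), and with median scaling, a trended robust spread or those arrays alone. The value without the DEN 100 rat at 12.45 was -2.92. Week 18 gave a cleaner separation, with 10.36, 11.51 and 10.95 in vehicle livers, against 13.43, 13.14 and 12.84 in PBS livers (-2.20 ± 0.55, limma adjusted p = 0.0064). Median scaling took the week 18 call to an adjusted p of 0.0681.

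Abcc3 (probe ILMN_1351428), which encodes the pump MRP3 that returns conjugated bile acids and glucuronides to blood, ran the other way. It read 6.34, 6.39 and 6.73 in PBS livers, 9.89, 10.27 and 10.20 in DEN 50 livers, and 9.56, 9.85 and 9.60 in DEN 100 livers at week 12. At week 18 it read 9.05, 9.73 and 10.13 in vehicle livers, against 6.24, 6.60 and 6.30 in PBS livers. Every DEN liver was at least 2 log2 units above every PBS liver. The change was 3.18 ± 0.19 in DEN 100 livers (limma adjusted p = 7.12e-11), 3.63 ± 0.19 in DEN 50 livers at week 12 (limma adjusted p = 7.35e-11) and 3.26 ± 0.19 in vehicle livers at week 18 (limma adjusted p = 2.00e-10). Raw Abcc3 signal in PBS livers was 0.951 to 1.15 times the median of its array, so these changes of 9.08-fold, 12.4-fold and 9.57-fold are lower limits. DEN 100 minus DEN 50 was -0.45 ± 0.19, with a 95% interval of -0.85 to -0.05 and no call (limma adjusted p = 0.180).

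**Figure D3:**
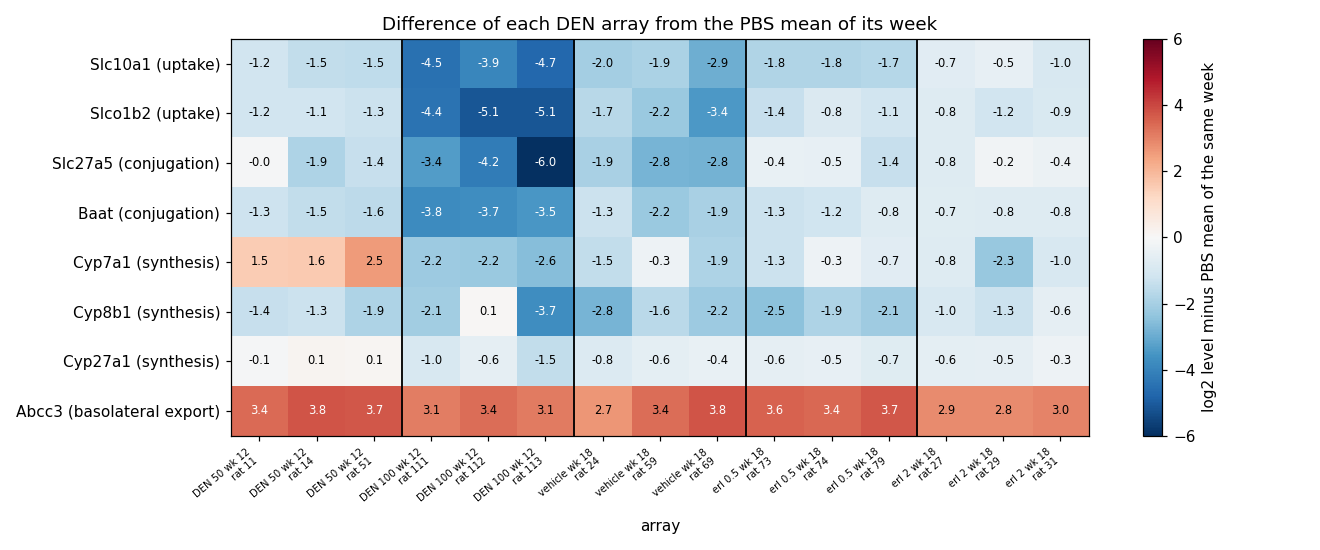
Log2 level of each gene (rows) on each of the 15 DEN arrays (columns) minus the PBS mean of the same week, with blue for lower and red for higher. Abcc3 is red on all 15 arrays, and blue deepens in the DEN 100 columns for uptake and conjugation genes, while Cyp7a1 is red in the DEN 50 columns of week 12.

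Ordered by group mean, DEN 100 livers were lowest for each of the 7 genes other than Abcc3. The step up from DEN 100 to the next group, vehicle livers of week 18, was called for Slc10a1, Slco1b2, Slc27a5, Baat and Cyp27a1 (2.04% of features called). For Cyp8b1 the next group was DEN 50 of week 12. For Cyp7a1 the next group was PBS at week 12, and that step was called too, whereas no neighbouring groups differed for Cyp8b1. Above the lowest step neighbours mostly did not differ beyond their spread, except erlotinib 2 below PBS at week 18 for Baat. For Abcc3 the called step lay between PBS of week 12 and erlotinib 2 livers (5.19% of features called). Highest minus lowest group mean was 4.89 log2 units for Slco1b2, 4.52 for Slc27a5, 4.36 for Slc10a1 and 4.22 for Cyp7a1. It was 3.74 for Abcc3, 3.67 for Baat, 2.67 for Cyp8b1 and 1.34 for Cyp27a1. The order of these spans is uncertain, because Abcc3 lay at background on PBS arrays and other genes came near it in DEN 100 livers. There raw signal was 1.63 to 2.40 times the array median for Slco1b2, 1.43 to 6.03 for Slc27a5 and 1.83 to 2.92 for Cyp7a1. None of the 8 was called between PBS livers of week 18 and week 12 (0 of 19339 features called by limma, 0%). Cyp7a1 alone had an unadjusted p under 0.05, as had 8.11% of features. Its values did not overlap between the 2 weeks, with a change of 1.68 ± 0.57 (95% interval 0.50 to 2.87, limma adjusted p = 0.448), or 0.70 without the week 12 rat at 8.40.

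The label weeks 18 and 12 were compared in DEN 50 livers, where the week 18 rats had also received vehicle. Slco1b2 alone was called, with 10.09 ± 0.91 under vehicle at week 18 and 11.47 ± 0.09 at week 12 (SD, n = 3 each), a change of -1.38 ± 0.29 (limma adjusted p = 0.0343, 0.543% of features called, 0.15% higher and 0.393% lower). The call was lost in 6 of 11 other settings and without vehicle rat 69 (-0.88), DEN 50 rat 11 (-1.36), rat 14 (-1.35) or rat 51 (-1.43). For Slc10a1 the difference was -0.89 ± 0.21, which missed the threshold (limma adjusted p = 0.0649), which it passed without vehicle rat 24 (-1.03) or rat 59 (-1.08). No gene of the 8 was called for the difference between the DEN 50 changes of the 2 weeks, where 0.233% of features were called by limma and 5 of the 8 had an unadjusted p under 0.05, as had 12.7% of features.

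Genes of the same pathway outside the 10 listed were taken from lists of synthesis, conjugation, uptake, export and regulator genes, of which 45 were measured. In DEN 100 livers 22 of the 45 were called lower and 3 higher, with a median log2 change of -0.56. DEN 50 livers of week 12 had 11 lower and 3 higher, and vehicle livers of week 18 had 14 lower and 3 higher, with a median of -0.20 in each. Over all features the shares called lower and higher were 9.81% and 11.5% in DEN 100 livers. They were 5.13% and 5.77% in DEN 50 livers of week 12, and 8.73% and 9.51% in vehicle livers.

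Among 12 further synthesis enzymes, 8 were called lower and 1 higher in DEN 100 livers. They included the peroxisomal side-chain enzymes Amacr (-2.23 ± 0.21), Acox2 (-2.17 ± 0.27) and Scp2 (-1.74 ± 0.15), and Cyp7b1, the oxysterol hydroxylase of the alternative route (-2.07 ± 0.36). In vehicle livers at week 18 Acox2, Scp2 and Amacr were again lower (-1.88, -1.16 and -1.09), whereas Cyp7b1 was not called (-0.30 ± 0.36, limma adjusted p = 0.663). Cyp7b1 read 8.71, 8.90 and 8.69 in vehicle livers, close to 8.58, 7.88 and 8.81 in DEN 100 livers. Its PBS livers read 11.025, 9.95 and 10.50 at week 12, against 8.40, 8.76 and 10.04 at week 18, a difference that was not called. Of 4 further conjugation genes only Ugt1a1, which encodes a glucuronosyltransferase, was called in DEN 100 livers (-1.19 ± 0.25). In vehicle livers the sulfotransferase gene Sult2a6 was higher (0.84 ± 0.26) and Ugt1a1 and the peroxisomal thioesterase gene Acot8 lower (-0.83 ± 0.25 and -0.48 ± 0.15). Probes of Ugt1a1 and Sult2a6 may share signal with close relatives of these genes. The Sult2a6 call was lost without vehicle rat 24 (0.68), PBS rat 8 (0.75) or PBS rat 18 (0.85), and the Ugt1a1 call without vehicle rat 24 (-0.77) or PBS rat 9 (-0.73). The Acot8 call was lost without any of 5 of the 6 arrays (-0.51 to -0.39).

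Of the other uptake genes, the organic anion carriers Slco2b1 and Slc22a7 were lower in DEN 100 livers (-2.33 ± 0.15 and -1.46 ± 0.20) and in vehicle livers at week 18 (-1.44 ± 0.15 and -1.04 ± 0.20). Ephx1, an epoxide hydrolase that has been proposed to take part in bile acid uptake, was higher (1.63 ± 0.25 and 0.92 ± 0.25), and the second call was lost without vehicle rat 59 (0.72), vehicle rat 69 (0.74) or PBS rat 18 (0.77). On the canalicular side 6 genes were measured. Abcb1b, a multidrug pump gene, was 5.09 ± 0.40 higher in DEN 100 livers and 4.03 ± 0.40 higher in vehicle livers. Abcb4, which flips phospholipid into bile, Abcg5, a sterol pump subunit, and Atp8b1, a canalicular flippase, were not called in any DEN group without erlotinib, with changes between -0.68 and 0.89. Abcg2, a pump for organic anions, was called among these 3 DEN groups in DEN 100 livers only (-1.16 ± 0.35), a call lost without any of 3 arrays (-1.13 to -1.07). Of 3 other basolateral exporters, Abcc6 was lower in DEN 100 livers (-2.02 ± 0.14) and vehicle livers (-1.52 ± 0.14), so Abcc3 and its relative Abcc6 were called in opposite directions. The cholesterol exporter Abca1 was lower in both (-0.56 ± 0.18 and -0.57 ± 0.18), calls that were lost without some single arrays (-0.59 to -0.34).

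Regulators were called lower in 8 of 17 cases in DEN 100 livers and in 4 of 17 in vehicle livers at week 18, and none was called higher in either. Over all features 9.81% were called lower and 11.5% higher in DEN 100 livers, and 8.73% and 9.51% in vehicle livers. Nr1h4, which encodes FXR, read 7.91 ± 0.19 in DEN 100 livers, against 9.89 ± 0.07 in PBS livers (SD, n = 3 each), a change of -1.98 ± 0.16 (limma adjusted p = 7.04e-09). It was also lower in DEN 50 livers (-1.11 ± 0.16) and in vehicle livers at week 18 (-1.53 ± 0.16). Nr0b2, which encodes SHP, was lower in vehicle livers at week 18 (-1.45 ± 0.29) and was not called in DEN 100 livers (-0.70 ± 0.29, limma adjusted p = 0.101). It read 6.95, 7.19 and 7.38 in vehicle livers, and 6.74, 6.81 and 6.41 in DEN 100 livers. The PBS livers they were compared with read 9.10, 8.06 and 8.72 at week 18, and 6.86, 7.36 and 7.84 at week 12. Cebpa, a hepatocyte transcription factor, was lower in both DEN 100 and vehicle livers (-1.08 ± 0.14 and -0.78 ± 0.14). In DEN 100 livers it read near background (6.39, 6.63 and 6.30). Hnf4a read near background, and its changes of -0.72 ± 0.16 and -0.69 ± 0.16 became -0.78 and -0.89 and were not called when arrays were scaled on bright probes (limma adjusted p = 0.0843 and 0.0516). Nr1i3, which encodes the xenobiotic receptor CAR, was higher in DEN 50 livers of week 12 (1.32 ± 0.30) and lower in DEN 100 than in DEN 50 livers (-1.88 ± 0.30), as Cyp7a1 was. The fibroblast growth factor receptor Fgfr4, which relays a gut signal that lowers synthesis, and the nuclear receptor Nr5a2 were lower in DEN 100 livers (-0.67 ± 0.16 and -0.60 ± 0.18). The Nr5a2 call was lost without any of 3 arrays (-0.59 to -0.49). In DEN 100 livers both read near background, Fgfr4 at 6.93, 6.42 and 6.52 and Nr5a2 at 6.40, 6.34 and 6.27. Onecut1, which encodes HNF6, was lower in DEN 100 and DEN 50 livers of week 12 (-1.58 ± 0.40 and -1.80 ± 0.40), the first call being lost without PBS rat 110 (-0.97), and was not called in vehicle livers (0.56 ± 0.40). Its PBS livers read 10.61, 10.04 and 12.18 at week 12, and 8.34, 8.61 and 8.47 at week 18. Onecut1 read 9.21, 9.60 and 9.26 in DEN 100, 9.84, 8.89 and 8.69 in DEN 50, and 9.01, 9.80 and 8.30 in vehicle livers. Nr1i2, which encodes the xenobiotic receptor PXR, was not called in DEN 100 livers (-0.52 ± 0.24, limma adjusted p = 0.143). Nfe2l2, which encodes the stress factor NRF2, was not called in any of these groups (0.21 ± 0.15 in DEN 100 livers).

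Markers of cell types moved with the DEN groups. In whole liver, fewer hepatocytes and less RNA per hepatocyte cannot be told apart. The marker counts stand beside these shares of all features called higher and lower. Against PBS they were 11.5% and 9.81% in DEN 100, 5.77% and 5.13% in DEN 50 of week 12, and 9.51% and 8.73% in vehicle livers. In DEN 100 against DEN 50 livers they were 5.07% and 4.31%. Of 14 genes for proteins secreted by hepatocytes 8 were called lower and 1 higher in DEN 100 livers, with a median change of -0.59, and Alb, which encodes albumin, was not called (-0.30 ± 0.17, limma adjusted p = 0.26). Alb read 14.11 to 15.20 over all arrays, close to the value of 15.48 that the brightest probes of the list shared, and whether such bright probes understate a change was not tested. The mean level of this list was 13.31 to 13.95 on the DEN 100 arrays and 14.55 to 14.59 on the PBS arrays of week 12. Of 10 cholangiocyte and progenitor markers 8 were higher in DEN 100 livers and none lower, with list means of 8.28 to 9.21 in DEN 100 and 6.70 to 7.01 in PBS livers. Of 8 stellate cell and myofibroblast markers 6 were higher in DEN 100 livers and none lower, with list means of 9.24 to 9.70 in DEN 100 and 7.66 to 8.25 in PBS livers. Vehicle livers at week 18 had 5 of the 10 cholangiocyte and 7 of the 8 stellate markers higher, and 4 of the 14 secreted proteins lower. Of 7 macrophage markers 4 were higher and 2 lower in DEN 100 livers, and 5 higher and 1 lower in vehicle livers. Both measured endothelial markers, Vwf and Lyve1, were higher in each, and of 10 inflammation genes 2 were higher and 3 lower in DEN 100 livers and 3 higher and 2 lower in vehicle livers. DEN 50 livers of week 12 had 5 of the 10 cholangiocyte, 4 of the 8 stellate and 2 of the 10 inflammation genes higher and 3 of the 14 secreted proteins lower than PBS livers, while 2 macrophage markers were higher, 2 were lower and neither endothelial marker was called. In DEN 100 against DEN 50 livers 5 cholangiocyte markers were higher, 6 secreted proteins lower and 1 higher, and 3 stellate markers higher and 1 lower. There 1 endothelial marker was higher, and 1 macrophage marker and 2 inflammation genes were lower. In PBS livers 4 of the 10 cholangiocyte markers at week 12 and 5 at week 18 lay at or below 6.38. The part of these cell markers in the changes of the bile acid genes was not tested.

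Erlotinib was compared with vehicle in DEN 50 livers at week 18. At 2 mg/kg both uptake carriers and both conjugation enzymes were higher than under vehicle, while no synthesis enzyme of the 8 and not Abcc3 was called. The uncalled change of Cyp8b1 (1.26 ± 0.55) was larger than the called change of Baat (1.05 ± 0.18), and the classes were not compared by a test. These 4 of 8 calls stood where 4.03% of features were called, 1.92% higher and 2.11% lower, and the median change of the 8 was 1.16, against 0.00 over all features. At 0.5 mg/kg none of the 8 was called, where 0.14% of features were called by limma. Of the 8, 4 had an unadjusted p under 0.05, as had 11.2% of features. Between the erlotinib doses none was called (0.0776% of features by limma), and 3 of the 8 had an unadjusted p under 0.05, as had 8.01% of features.

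**Figure D4:**
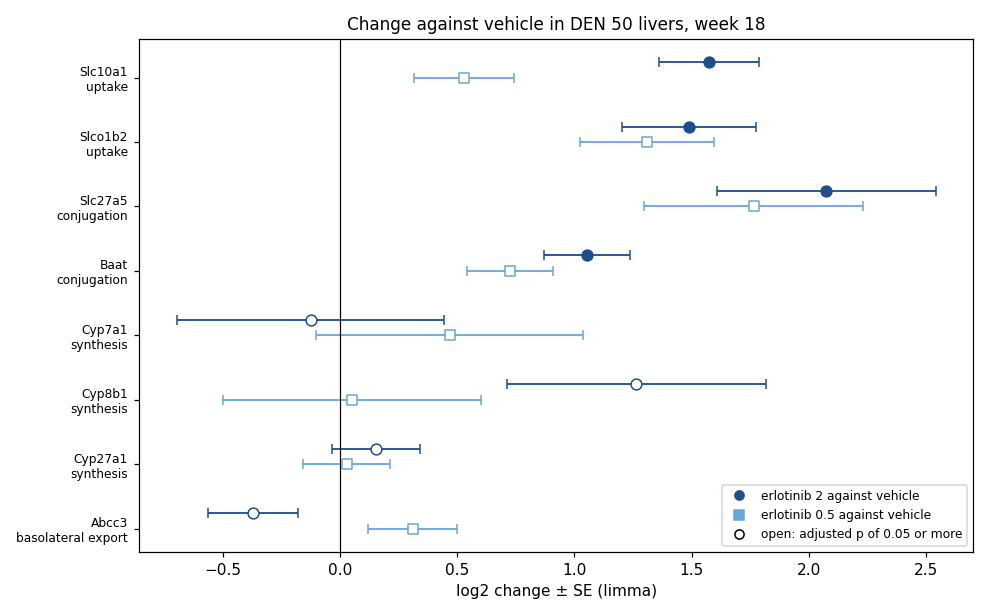
Log2 change ± SE (horizontal axis) of each gene (rows) in livers given erlotinib at 2 mg/kg or 0.5 mg/kg against vehicle, all DEN 50 livers of week 18, 3 arrays per group; open symbols have an adjusted p of 0.05 or more. Filled symbols are Slc10a1, Slco1b2, Slc27a5 and Baat at 2 mg/kg, from 1.05 to 2.07.

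Slc10a1 read 11.73, 11.84 and 10.81 under vehicle, 11.96, 11.96 and 12.05 with erlotinib at 0.5 mg/kg, and 13.07, 13.26 and 12.77 at 2 mg/kg. The groups did not overlap. At 2 mg/kg it was 2.98-fold higher than under vehicle (1.57 ± 0.21, limma adjusted p = 0.000162), and it was 1.05 ± 0.21 above the lower dose without reaching a call (limma adjusted p = 0.0571). That difference was called with array weights, with a trended and robust spread, with a fit of those arrays alone and without erlotinib 2 rat 31 (1.18).

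Slco1b2 read 10.87, 10.31 and 9.09 under vehicle, 11.15, 11.68 and 11.38 at 0.5 mg/kg, and 11.76, 11.37 and 11.61 at 2 mg/kg. Both erlotinib groups lay above all vehicle livers and overlapped each other. The change was 1.49 ± 0.29 at 2 mg/kg (limma adjusted p = 0.00396), and it was not called when only those 6 arrays were fitted. At 0.5 mg/kg it was 1.31 ± 0.29 (limma adjusted p = 0.0675), and 1.70 with a call without vehicle rat 24 (limma adjusted p = 0.00288). The doses differed by 0.18 ± 0.29, with a 95% interval of -0.42 to 0.77.

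Slc27a5 read 11.18, 10.31 and 10.28 under vehicle, 12.69, 12.62 and 11.76 at 0.5 mg/kg, and 12.33, 12.90 and 12.77 at 2 mg/kg. Again both erlotinib groups lay above all vehicle livers. At 2 mg/kg the change was 2.07 ± 0.47, 4.21-fold (limma adjusted p = 0.0117), a call that was lost without erlotinib 2 rat 29 (1.96) or vehicle rat 69 (1.92). At 0.5 mg/kg it was 1.76 ± 0.47 (limma adjusted p = 0.137). Baat read 11.39, 10.47 and 10.76 under vehicle, 11.40, 11.50 and 11.90 at 0.5 mg/kg, and 11.96, 11.92 and 11.90 at 2 mg/kg. Its change was 1.05 ± 0.18 at 2 mg/kg (limma adjusted p = 0.00193) and 0.73 ± 0.18 at 0.5 mg/kg (limma adjusted p = 0.121), the last of which was called without vehicle rat 24 (0.98).

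The synthesis enzymes overlapped between erlotinib and vehicle livers except Cyp8b1 at 2 mg/kg. Cyp8b1 read 10.36, 11.51 and 10.95 under vehicle, 10.68, 11.28 and 11.01 at 0.5 mg/kg, and 12.18, 11.85 and 12.58 at 2 mg/kg, and the change of 1.26 ± 0.55 at the higher dose was not called (limma adjusted p = 0.263). Cyp7a1 read 10.56, 11.75 and 10.20 under vehicle, 10.78, 11.77 and 11.37 at 0.5 mg/kg, and 11.27, 9.78 and 11.09 at 2 mg/kg, a change of -0.13 ± 0.57 at 2 mg/kg. Cyp27a1 read 12.34, 12.59 and 12.76 under vehicle, 12.63, 12.67 and 12.47 at 0.5 mg/kg, and 12.61, 12.65 and 12.89 at 2 mg/kg, a change of 0.15 ± 0.19 at 2 mg/kg. The 95% intervals at 2 mg/kg were -1.31 to 1.06 for Cyp7a1 and -0.23 to 0.54 for Cyp27a1, so changes of these sizes cannot be told from none.

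Abcc3 read 9.05, 9.73 and 10.13 under vehicle, 9.94, 9.82 and 10.08 at 0.5 mg/kg, and 9.23, 9.23 and 9.34 at 2 mg/kg. The change at 2 mg/kg was -0.37 ± 0.19, with a 95% interval of -0.77 to 0.03 and no call (limma adjusted p = 0.383). Without vehicle rat 24, the lowest of its group, it was -0.66 and called (limma adjusted p = 0.0232). Against PBS of the same week Abcc3 was 2.89 ± 0.19 higher with erlotinib at 2 mg/kg and 3.57 ± 0.19 higher at 0.5 mg/kg. The size of both is uncertain because the PBS arrays lay at background. Other settings gave 2.27 to 2.90 at 2 mg/kg and 2.90 to 3.69 at 0.5 mg/kg.

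Set against PBS at week 18, livers given erlotinib at 2 mg/kg had 2 of the 8 genes called, Abcc3 higher and Baat lower, where 5.67% of features were called, 3.36% higher and 2.32% lower. For Baat the change was -0.77 ± 0.18 (limma adjusted p = 0.0138), and its call was lost without erlotinib 2 rat 31 (-0.75), PBS rat 8 (-0.70) or PBS rat 18 (-0.74). Slc10a1 (-0.72 ± 0.21, limma adjusted p = 0.0505) and Slco1b2 (-0.94 ± 0.29, limma adjusted p = 0.0569) narrowly missed the threshold, with no overlap between erlotinib 2 and PBS livers, and both were called with array weights, with the stricter filter and with those arrays alone. Livers given 0.5 mg/kg had 6 called, Abcc3 higher and Slc10a1, Slco1b2, Baat, Cyp8b1 and Cyp27a1 lower, where 15.5% of features were called, 8.01% higher and 7.47% lower. Their changes were -1.76 ± 0.21, -1.12 ± 0.29, -1.09 ± 0.18, -2.14 ± 0.55 and -0.59 ± 0.19. The Cyp27a1 call was lost without any 1 of the 3 erlotinib 0.5 rats or of PBS rats 8 and 9 (-0.63 to -0.53). Median scaling ended the calls of Slco1b2 (-0.97), Cyp8b1 (-2.06) and Cyp27a1 (-0.53). Whether the groups differ in distance from PBS is the comparison between doses given above, which called none of the 8.

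Of the 45 further pathway genes 6 were called higher with erlotinib at 2 mg/kg and none lower. Over all features 1.92% were called higher and 2.11% lower. The 6 genes were the uptake carriers Slc22a7 (1.36 ± 0.20) and Slco2b1 (1.13 ± 0.15), the exporter Abcc6 (1.06 ± 0.14), the synthesis enzymes Amacr (0.88 ± 0.21) and Scp2 (0.59 ± 0.15), and Nr1h4 (0.79 ± 0.16, limma adjusted p = 0.00715). Slc22a7 was called in each of the 11 other settings, and the other 5 were not called with median scaling. Without vehicle rat 69 the calls of Amacr (0.78), Scp2 (0.59) and Nr1h4 (0.67) were lost. Amacr also lost its call without erlotinib 2 rat 31 (0.75), and Scp2 without any of 4 other arrays (0.50 to 0.61). At 0.5 mg/kg Slc22a7 (1.02 ± 0.20, limma adjusted p = 0.0438) and Abcc6 (0.84 ± 0.14, limma adjusted p = 0.0161) were called higher. Both calls were lost without erlotinib 0.5 rat 73 (0.87 and 0.80), rat 74 (0.98 and 0.79) or vehicle rat 69 (0.997 and 0.85), and that of Slc22a7 also without vehicle rat 24 (0.97) or rat 59 (1.10).

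Some of these cell markers were also called with erlotinib. Over all features 1.92% were called higher and 2.11% lower at 2 mg/kg, and 0.14% were called at 0.5 mg/kg. At 2 mg/kg 4 of 10 cholangiocyte and progenitor markers and 6 of 8 stellate cell markers were lower than under vehicle and none was higher. List means were 7.45 to 7.76 with erlotinib at 2 mg/kg and 7.88 to 8.64 under vehicle for the cholangiocyte markers. They were 8.43 to 8.57 with erlotinib at 2 mg/kg and 9.58 to 9.67 under vehicle for the stellate markers. Of 14 secreted proteins 3 were higher and none lower, with list means of 14.42 to 14.50 at 2 mg/kg and 14.08 to 14.26 under vehicle. At 2 mg/kg 1 of 7 macrophage markers and 1 of 10 inflammation genes were higher, none was lower, and neither endothelial marker was called. At 0.5 mg/kg 1 macrophage marker was higher and no other marker of these 6 lists was called. The part of these markers in the erlotinib changes was not tested.

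Likeness of pattern was described with Pearson's r over the 21 arrays, which share group means, so no p is given. Slc10a1 and Slco1b2 correlated at 0.96, Slc10a1 and Baat at 0.96, and Slco1b2 and Slc27a5 at 0.93. After group means were removed the same pairs correlated at 0.47, 0.12 and 0.35, so for these pairs most of the likeness lay between groups. Slc10a1 and Abcc3 correlated at -0.67, and Cyp7a1 and Cyp8b1, both enzymes of the classical route, at 0.34. With group means removed these were -0.41 and 0.21. Other pairs kept their likeness within groups, with Slco1b2 and Abcc3 at -0.60 before and -0.75 after. Cyp8b1 and Cyp27a1 stood at 0.69 before and 0.61 after. Across all named genes the nearest to Slc10a1 were Mug2 (0.987), Hsd3b5 (0.980), Agmo (0.980), Tgfbi (0.980) and Serpina4 (0.975). Nearest to Abcc3 were Gstp1 (0.985), Nqo1 (0.976), Serpinb1a (0.976), Ptgr1 (0.975) and Tubb6 (0.973). Cyp7a1 had no gene as close, with Hdac11 (0.831), Agxt2 (0.826), Pxylp1 (0.816), Tollip (0.802) and Akr7a2 (0.796) the nearest.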

How the data were processed

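Liver RNA of 21 samples in 7 groups was hybridised to Illumina bead arrays carrying 22523 probes. The authors deposited a table of raw intensity and a table of normalized intensity for the same arrays, the second with array medians of 135.5 to 136.8. Scanner software and the method behind the second table are not given in the sources used here. Starting from raw intensities, limma 3.58.1 in R 4.3.3 corrected the background (normexp, offset 50), and log2 values were quantile normalized. A probe was kept if it exceeded its array's 40th percentile on 3 or more arrays. Each gene was represented by its brightest probe, giving 19339 features. Symbols come from GEO's platform annotation, which can be old and names 13793 probes. One limma fit with a mean per group (14 residual degrees of freedom) served all comparisons, with Benjamini-Hochberg adjustment over all features. The fit was tested on simulated data. The members, gene lists and tests were chosen with earlier results of these data known. By rule, the text names all members, up to 3 pathway genes per list with the largest called changes in each of DEN 100 and vehicle livers against PBS, set regulators, and the nearest patterns. Abcb4, Abcg5, Atp8b1 and the marker genes were named with values already known. Alternatives were the deposited normalized values, no background correction, other scalings, filters, spreads, weights and thresholds, the mean of probes, and leaving out each array. The labels give no slide or scan batch. Promoters came from RefSeq tables, read with Python 3.11.15 and pandas 2.3.3, and figures were drawn with matplotlib 3.10.9.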

Additional observations from a re-analysis of the deposited data

How the results depend on the processing

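No paired analysis was possible because no replicate number in the labels is shared between groups. Over 11 other settings and 12 comparisons the 8 bile acid genes gave 1056 values, of which 999 kept their side of the threshold. Of the rest, 29 lost a call and 28 gained one. No called value reversed, and 5 uncalled values changed sign. Not every setting could move a value. Each of the 8 genes has 1 probe, so the mean of probes leaves its levels unchanged. The threshold of a log2 change of at least 1 reuses the main fit and can only remove calls. The count of 999 is therefore partly fixed in advance. Of 624 values with 1 array left out, 592 kept their side, 23 lost a call and 9 gained one; 17 uncalled values changed sign. The number of the 8 genes called was 5 in DEN 50 against PBS at week 12 and 3 with median scaling (2108 and 1377 of 19339 features). It was 0 for erlotinib at 0.5 mg/kg against vehicle and 3 with array weights (27 and 139 features). It was 0 between the erlotinib doses, 2 with array weights and 1 with a trended robust spread (15, 194 and 26 features). With only the compared groups it was 3 there. For erlotinib at 0.5 mg/kg against PBS it was 6, and 3 with median scaling (2994 and 1685 features). For erlotinib at 2 mg/kg against PBS it was 2 (1097 features), and 4 with array weights (1415) or the stricter filter (1294 of 9647). It was 7 there with only the compared groups, and 1 with median scaling (327) or a log2 change of at least 1 (360). For vehicle livers at week 18 against DEN 50 at week 12 it was 1, and 2 with array weights (105 and 204 features). It was 0 there with the deposited values (33 of 18879), bright-probe scaling (6), median scaling (13) or no background correction (69). A trended robust spread (71) or only the compared groups also gave 0. With 1 array left out the counts ranged from 7 to 8 for DEN 100 against PBS, 4 to 5 for DEN 50 against PBS, 6 to 7 between DEN doses and for vehicle against PBS, 0 to 2 for erlotinib at 0.5 mg/kg and 3 to 5 at 2 mg/kg against vehicle, 0 to 1 between erlotinib doses, 5 to 6 and 1 to 2 for the lower and higher dose against PBS, 0 to 3 over time in DEN 50 livers, and stayed at 0 for PBS over time and the interaction. Counts over all features thus moved with the settings as well. They are not given here for only the compared groups or for fits with 1 array left out. The cause of these shifts was not tested. Scaling on bright probes moved the median of all features by -0.20 in DEN 100 and -0.49 in DEN 50 livers against PBS at week 12, by -0.34 in vehicle livers at week 18 and by 0.29 between DEN doses. Median scaling raised the share of higher calls to 67.9% from 53.9% for DEN 100, to 89.7% from 52.9% for DEN 50 and to 79.5% from 52.1% for vehicle, each against PBS. Signals near background, as for Abcc3 in PBS livers, limit the size of a measured change.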
